A study of Homo sapiens with 2 samples.

Results

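Among the genes counted in this single-cell RNA-seq study were 4 E2F transcription factors (E2F1, E2F2, E2F3 and E2F4) and their 2 dimerization partners of the DP family (TFDP1 and TFDP2). These 6 genes were taken by symbol from the 32738 genes of both count matrices, and each symbol matched 1 identifier. The libraries came from Nalm-6, an established human cell line grown from a B-cell precursor acute lymphoblastic leukemia, carrying Tet-On constructs that doxycycline switches on. One culture expressed the ETV6-RUNX1 fusion, a transcription factor made by a chromosome translocation of childhood leukemia, and the control culture expressed luciferase (LUC). Both groups received 500 ng/ml doxycycline for 24 h, so the drug was shared, and dead cells were depleted with beads before droplet capture. The fusion was expressed from a construct in an already transformed line, and the labels name no clone, second culture or batch.

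Each group held 1 library. No replicate check was possible, no test was made between the groups, and every interval below covers counting error only. The kept cells, those with at least 1000 detected genes and at most 10% mitochondrial transcripts, numbered 2267 of 2503 barcodes with ETV6-RUNX1 and 1870 of 2203 in the control. They held 43941536 and 42762188 unique molecular identifiers (UMIs, each marking 1 captured transcript), with medians of 19219 and 22535.5 per cell. A gene counts as measured from 10 CPM (UMIs of a gene per 1000000 UMIs of the summed kept cells) in at least 1 library. The libraries shared 16 barcode sequences, 7 of them among kept cells in both. Of 10 B-cell precursor markers, 9 matched a gene and all 9 were measured. All 8 erythroid and megakaryocyte markers were at 0, 0 of 8 T and NK markers were measured, and the myeloid and the epithelial and fibroblast lists had 1 measured gene each (CST3 and PDGFRA). Their summed levels were 18.9 and 68.4 CPM with ETV6-RUNX1 against 16.4 and 66.8 CPM in the control.

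E2F proteins bind DNA as heterodimers with a DP protein and switch on the genes of DNA replication. In early G1 the retinoblastoma family of pocket proteins holds them silent, and phosphorylation of these proteins by cyclin-dependent kinases releases them at the G1/S transition. E2F1, E2F2 and E2F3 are the activators of this set and are themselves transcribed as cells enter the cycle, E2F4 works mainly as a repressor with the pocket proteins in resting cells, and TFDP1 and TFDP2 can each pair with any of the 4. In B-cell precursors, bursts of division alternate with resting stages in which antigen receptor genes are rearranged.

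Activator E2F genes are known for E2F sites in their own promoters, so the upstream sequences were read before the levels. The lines below give the 250 bases before the first annotated start of 5 of the genes, in RefSeq (GRCh38.p14), from 5′ to 3′ on the strand of the gene. Capitals mark a match, on either strand, to 1 of the 4 E2F motif forms TTTCCCGC, TTTCGCGC, TTTGCCGC and TTTGGCGC. E2F4 is shown as a gene without a match, and TFDP2, also without one, is not printed.
E2F1 (chr20:33686386-33686635, minus strand): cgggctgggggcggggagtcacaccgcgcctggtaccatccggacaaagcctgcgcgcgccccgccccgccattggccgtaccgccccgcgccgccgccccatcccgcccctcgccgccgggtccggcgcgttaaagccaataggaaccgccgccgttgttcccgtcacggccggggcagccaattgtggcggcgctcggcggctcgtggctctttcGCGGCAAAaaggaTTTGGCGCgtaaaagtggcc
E2F2 (chr1:23531234-23531483, minus strand): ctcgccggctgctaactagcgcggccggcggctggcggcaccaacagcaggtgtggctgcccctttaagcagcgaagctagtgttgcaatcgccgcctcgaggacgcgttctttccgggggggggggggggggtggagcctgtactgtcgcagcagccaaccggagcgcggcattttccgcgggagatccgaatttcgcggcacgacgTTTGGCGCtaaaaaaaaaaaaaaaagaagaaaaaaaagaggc
E2F3 (chr6:20401629-20401878, plus strand): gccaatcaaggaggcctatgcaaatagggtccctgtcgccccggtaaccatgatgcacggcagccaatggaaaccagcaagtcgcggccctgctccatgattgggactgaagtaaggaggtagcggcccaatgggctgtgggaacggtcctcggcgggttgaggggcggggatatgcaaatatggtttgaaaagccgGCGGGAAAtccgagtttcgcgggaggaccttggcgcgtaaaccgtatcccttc
TFDP1 (chr13:113584503-113584752, plus strand): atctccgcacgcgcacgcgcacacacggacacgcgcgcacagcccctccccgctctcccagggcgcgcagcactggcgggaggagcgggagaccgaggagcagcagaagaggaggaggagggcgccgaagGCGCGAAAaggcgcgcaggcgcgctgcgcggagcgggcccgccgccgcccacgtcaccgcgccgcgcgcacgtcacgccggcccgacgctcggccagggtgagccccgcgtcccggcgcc
E2F4 (chr16:67191905-67192154, plus strand): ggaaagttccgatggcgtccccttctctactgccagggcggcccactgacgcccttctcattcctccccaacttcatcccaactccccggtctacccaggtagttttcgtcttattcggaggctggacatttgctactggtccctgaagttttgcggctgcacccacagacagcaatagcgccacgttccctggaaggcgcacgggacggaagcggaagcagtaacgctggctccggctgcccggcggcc

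E2F1 held 2 separate matches, TTTGCCGC on the opposite strand 33 bases and TTTGGCGC on its own strand 20 bases before the start. E2F2 held TTTGGCGC on its own strand 42 bases before the start, E2F3 held TTTCCCGC on the opposite strand at 53 bases, and TFDP1 held TTTCGCGC on the opposite strand at 120 bases. No form was found in the 3 annotated windows of TFDP2 or in the second window of E2F3. At least 1 of the 4 forms stood in 979 of 35116 windows of the same length before annotated gene starts (2.79%). A match describes these letters and is not a bound site, and its absence says nothing of the factor. The matrices were built on hg19, and no coordinate was taken from them.

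All 6 genes were measured. TFDP1 (ENSG00000198176), the first DP partner of the family by name, was counted 467 times with ETV6-RUNX1 and 872 times in the control. That gave 10.6 CPM (9.69 to 11.6) against 20.4 CPM (19.1 to 21.8), a log2 ratio of -0.94 (-1.11 to -0.78), or 1.92-fold lower with the fusion. Its intervals did not overlap, and its ratio was the 8th lowest of 5954 measured genes. With the 5 cell clusters described further on given equal weight in both libraries, it was -0.57, under the 1.5-fold size used here to call a gene different. That weighting was chosen after the data were seen.

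Its paralogue TFDP2 (ENSG00000114126) lay on the other side of 0, at 69.0 CPM (66.5 to 71.5) with ETV6-RUNX1 and 58.9 CPM (56.6 to 61.2) in the control. The log2 ratio was 0.23 (0.15 to 0.31), and the DP genes thus differed in direction between the libraries. Of the activators, E2F1 (ENSG00000101412) was counted at 68.3 CPM (65.8 to 70.8) against 55.4 CPM (53.2 to 57.7). Its log2 ratio of 0.30 (0.22 to 0.38) was at percentile 98.1 of all measured genes, below the 1.5-fold size.

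For E2F2 (ENSG00000007968) the libraries had 53.7 CPM (51.5 to 55.9) with the fusion and 55.6 CPM (53.4 to 57.8) in the control, a log2 ratio of -0.05 (-0.13 to 0.03) that was 0.01 after cells were thinned to equal depth. E2F3 (ENSG00000112242) had 20.2 CPM (18.9 to 21.5) and 18.3 CPM (17.1 to 19.6), with a log2 ratio of 0.14 (-0.00 to 0.28). The repressor E2F4 (ENSG00000205250) had 54.0 CPM (51.9 to 56.2) and 55.0 CPM (52.8 to 57.3), a log2 ratio of -0.03 (-0.11 to 0.06) that was between 0.01 and 0.03 under 3 other scalings and after thinning. For these 3 genes the intervals of both libraries overlapped. A poly-A library counts transcripts and not transcript length, but levels are compared here only between libraries and cells and not between genes.

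Of the 6 genes, 1 was at least 1.5-fold lower with ETV6-RUNX1 and 0 were at least 1.5-fold higher. Over all measured genes, 0.655% were that much lower and 0.185% that much higher. The median log2 ratio of the 6 was 0.06, and that of all measured genes was -0.04. Since counts were summed over cells, fewer cells with a transcript and fewer transcripts per cell are separated only by the per-cell values below.

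**Figure D1:**
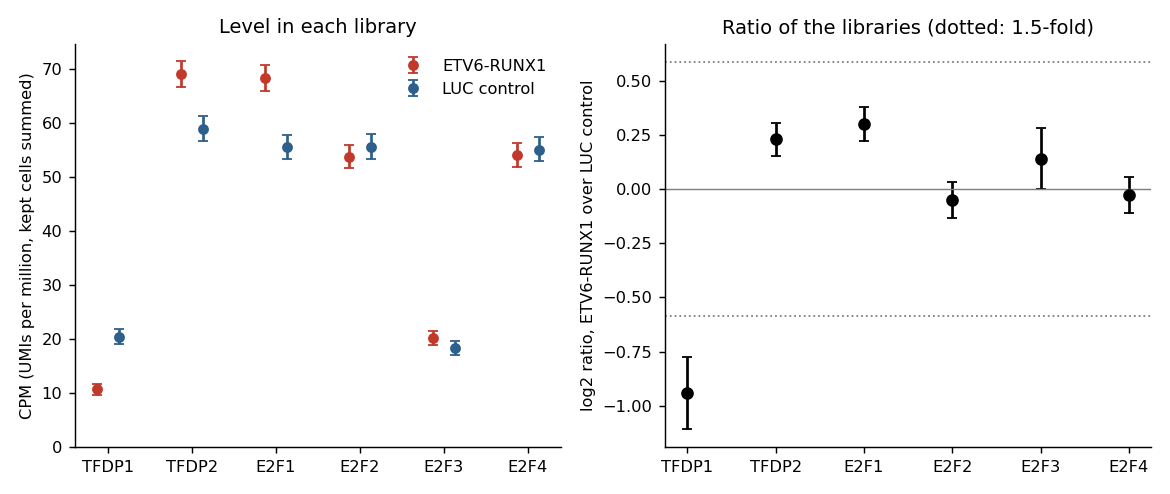
Left, level of each gene in CPM (UMIs per 1000000 UMIs of the summed kept cells) in the ETV6-RUNX1 and LUC control libraries; right, log2 ratio of ETV6-RUNX1 over control with dotted lines at 1.5-fold. Bars are exact 95% Poisson intervals (counting error only, 1 library each), and TFDP1 alone lies beyond a dotted line, at -0.94.

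Cell-cycle phase was called from published S and G2/M gene lists, which hold none of the 6 genes but do hold known E2F targets, in cells thinned to 8700 UMIs. With ETV6-RUNX1, 469, 627 and 947 cells were called G1, S and G2/M, and in the control 350, 625 and 811. Scores were close to the threshold, within 0.05, in 23.3% and 22.3% of the cells. Of the cycle genes set beside the calls, CCNE2 and PCNA belong to the S list and so were used to make them, while CCNB1 is in neither list. CCNE2, the cyclin of the G1/S transition, was higher in S than in G1 by 1.54 and 1.77 on the log2 scale with ETV6-RUNX1 and in the control, PCNA, the replication clamp, by 1.42 and 1.28, and CCNB1, the mitotic cyclin, was higher in G2/M than in G1 by 2.37 and 2.18.

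E2F1, E2F2 and TFDP1 were higher in S than in G1 in both libraries. That made 3 of 6 genes at least 1.5-fold higher in each library, where 5.62% of measured genes were so with ETV6-RUNX1 and 4.52% in the control. In G2/M over G1, E2F2 was the 1 gene of 6 past that size in each library, where 6.39% and 4.62% of measured genes were. None of the 6 was 1.5-fold lower in S or G2/M. These counts depend on the phase call. With phases called on all UMIs, S over G1 had 2 genes with ETV6-RUNX1 (TFDP1 was at 0.44) and 3 in the control, and G2/M over G1 had 2 in each library (E2F1 and E2F2). With G1 taken as the lowest tercile of the larger score, S over G1 had 3 genes with ETV6-RUNX1 and 1, TFDP1, in the control, where E2F1 was at 0.51 and E2F2 at 0.50. That call gave TFDP1 and E2F2 in G2/M with ETV6-RUNX1 and TFDP1 alone in the control, with E2F2 at 0.45.

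E2F2 had the largest step with ETV6-RUNX1. It was at 25.7 CPM in G1, 60.1 CPM in S and 61.6 CPM in G2/M, and in the control at 36.9, 59.8 and 59.0 CPM. The S over G1 log2 ratio was 1.22 (1.00 to 1.45) with the fusion, against 0.70 (0.49 to 0.90) for the control, and the G2/M over G1 ratio 1.26 (1.05 to 1.47) and 0.68 (0.48 to 0.88). E2F2 was thus near its S level in the pooled G2/M call in both libraries, though by the finer stages below it was lower in M than in S.

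E2F1 was highest in S. It stood at 48.1, 89.3 and 63.6 CPM in G1, S and G2/M with ETV6-RUNX1, and at 44.4, 74.2 and 46.9 CPM in the control. The S over G1 log2 ratio was 0.89 (0.73 to 1.06) and 0.74 (0.56 to 0.93). In G2/M the genes parted, since E2F1 was 0.40 (0.24 to 0.57) above G1 with ETV6-RUNX1 and 0.08 (-0.11 to 0.27) above it in the control. This last value ranged from -0.22 to 0.61 with other phase calls.

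For TFDP1 the levels in G1, S and G2/M were 7.67, 13.1 and 9.77 CPM with ETV6-RUNX1 and 13.4, 26.6 and 18.7 CPM in the control. Its S over G1 ratio was 0.77 (0.34 to 1.21) and 0.99 (0.66 to 1.34), from as few as 65 UMIs in G1 cells with ETV6-RUNX1. TFDP2 ran the other way. It was at 77.6, 75.0 and 60.8 CPM in G1, S and G2/M with ETV6-RUNX1 and 66.7, 60.1 and 54.8 CPM in the control, and G2/M was lower than G1 by -0.35 (-0.49 to -0.21) and -0.28 (-0.44 to -0.12) on the log2 scale.

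E2F3 and E2F4 differed little between the 3 phases. E2F3 lay between 17.2 and 20.8 CPM and E2F4 between 53.2 and 56.1 CPM in every phase of either library, and each of their 8 ratios to G1 had an interval that included 0. The widest of these intervals, for E2F3 in the control, reached from -0.14 to 0.50, so a step of about that size was not detectable at this depth.

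A finer order came from 4 stage lists (G1/S, S, G2 and M), with cells scoring above 0 on none of them kept apart as unstaged. E2F1 was at 39.9 CPM in unstaged cells, 77.0 at G1/S, 96.8 in S, 64.3 in G2 and 45.0 in M with ETV6-RUNX1. In the control it was at 34.5, 69.9, 76.8, 44.7 and 34.1 CPM, so in both libraries its level in M was close to that of unstaged cells. E2F2 was at 20.9, 53.8, 65.6, 66.8 and 52.3 CPM with ETV6-RUNX1 and at 26.4, 56.5, 71.0, 63.1 and 48.8 CPM in the control, and in M it was still above unstaged cells, by 1.32 (1.03 to 1.62) and 0.89 (0.60 to 1.18) on the log2 scale. TFDP1 was at 9.58, 8.37, 14.3, 12.1 and 7.23 CPM with ETV6-RUNX1 and at 14.9, 21.5, 24.8, 20.3 and 17.5 CPM in the control. It was highest in S in both libraries. At G1/S its log2 ratio to unstaged cells was -0.19 (-0.69 to 0.32) with ETV6-RUNX1, against 0.53 (0.15 to 0.93) in the control. TFDP2 was highest in unstaged cells, at 86.7 and 70.2 CPM, and lowest in M, at 56.4 and 51.9 CPM. In the control, unstaged cells had less E2F3 than S cells, 14.7 against 20.7 CPM (log2 ratio 0.49, 0.09 to 0.91), and less E2F4 than M cells, 50.4 against 61.7 CPM (0.29, 0.07 to 0.51). The same ratios with ETV6-RUNX1 were 0.04 (-0.30 to 0.39) for E2F3 and 0.12 (-0.09 to 0.33) for E2F4.

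**Figure D2:**
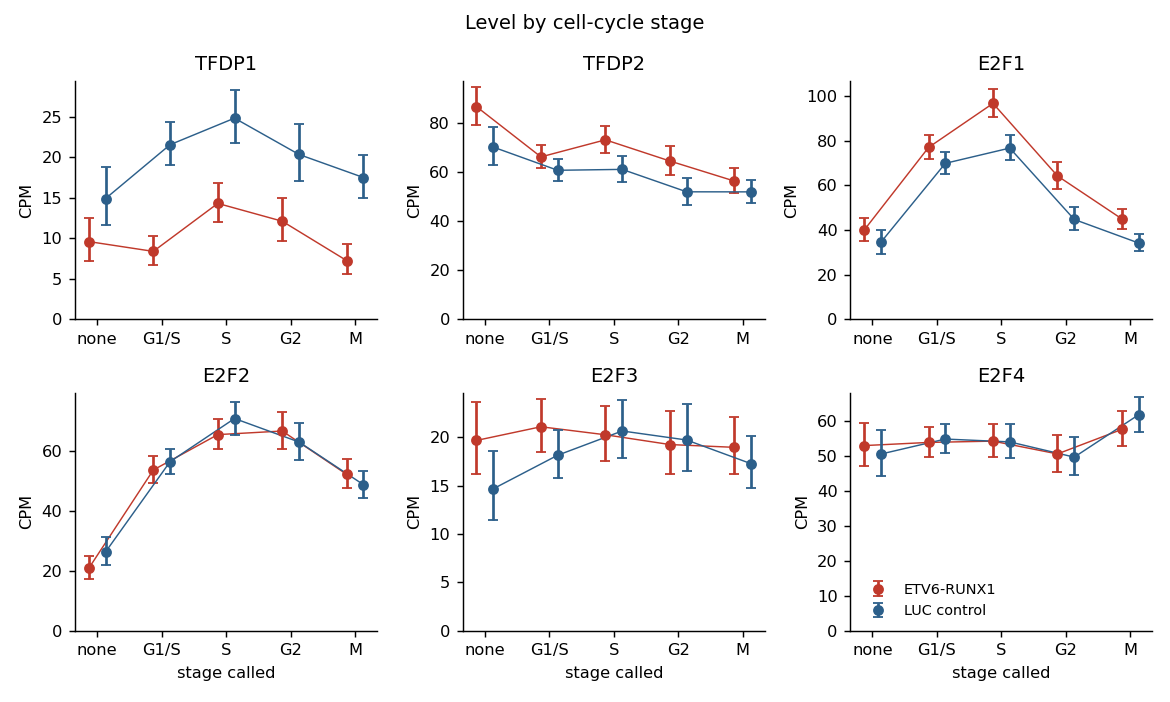
Level in CPM (y axis, from 0) of each gene in cells called to none of the stages, G1/S, S, G2 or M, in the ETV6-RUNX1 and LUC control libraries, with exact 95% Poisson intervals (counting error only). E2F1 peaks in S (96.8 and 76.8 CPM), E2F2 is lower in M than in S but still above unstaged cells, and TFDP2 is highest in unstaged cells. E2F3 and E2F4 vary less, within 14.7 to 21.1 CPM and 49.6 to 61.7 CPM. Lines only join the points.

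Within phases, TFDP1 was lower with ETV6-RUNX1 in each, by -0.80 (-1.28 to -0.33) in G1, -1.03 (-1.31 to -0.76) in S and -0.94 (-1.19 to -0.70) in G2/M on the log2 scale. E2F1 was 0.11 (-0.10 to 0.33) above the control in G1, 0.27 (0.14 to 0.39) in S and 0.44 (0.32 to 0.56) in G2/M. E2F2 was lower with ETV6-RUNX1 in G1, by -0.52 (-0.79 to -0.25), while in S and G2/M its ratios were 0.01 (-0.14 to 0.15) and 0.06 (-0.05 to 0.17). In unstaged cells the E2F2 ratio was -0.33 (-0.71 to 0.04), an interval that included 0, so the G1 difference depends on the call. For TFDP2 the ratios were 0.22, 0.32 and 0.15, each with an interval above 0. The overall ratios of TFDP1, TFDP2 and E2F1 thus had the same sign in every phase.

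To compare shares of cells, each cell was thinned to 8700 UMIs, which left out 224 and 84 shallower cells. TFDP1 was found in 147 of 2043 thinned cells with ETV6-RUNX1 (7.20%, exact binomial interval 6.11 to 8.40) and in 260 of 1786 in the control (14.6%, 12.9 to 16.3). Without thinning the shares were 12.2% and 23.8%. No cell type that lacks these genes was present to give a background share, but 1 cluster of kept cells, rich in histone transcripts, had TFDP1 in 0.681% and 1.58% of its thinned cells. Barcodes of more than 50% mitochondrial transcripts held 1 TFDP1 UMI in each library, in 157 and 205 barcodes with medians of 842 and 919 UMIs.

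The mean was 1.37 UMIs per positive thinned cell with ETV6-RUNX1 and 1.40 in the control, while the share of positive cells differed. At so few UMIs per cell this mean moves little with the level, so the share and the depth per cell cannot be told apart by it. The UMIs were spread unevenly. A Poisson count of the same mean would put TFDP1 in 9.37% and 18.4% of thinned cells, and cells with 2 or more UMIs numbered 44 and 81 where Poisson counts give 9.26 and 32.4. Its variance over mean was 1.55 and 1.53, which ranked 37th of 5045 and 33rd of 5005 genes with a mean below 1 UMI, where the median gene had 1.03 in each library.

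The other genes were closer to even than TFDP1, but E2F1, E2F2 and TFDP2 were still more uneven than most genes with a mean below 1 UMI. By variance over mean, E2F1 was at percentile 97.6 and 95.8 of these, E2F2 at 97.3 and 97.4, and TFDP2 at 94.9 and 93.0. Variance over mean was 1.26 and 1.17 for E2F1, 1.24 and 1.22 for E2F2, and 1.17 and 1.13 for TFDP2 with ETV6-RUNX1 and in the control. E2F3 had 1.03 and 1.09 and E2F4 1.01 and 0.987, with E2F4 found in 37.7% and 37.2% of thinned cells where Poisson counts give 38.1% and 37.5%. On this measure E2F3 and E2F4 were the most evenly counted of the 6, and the other genes lay between them and TFDP1. E2F3 was at percentile 48.9 with ETV6-RUNX1 and 86.9 in the control, where it too was more uneven than most genes. Its mean of 0.18 and 0.17 UMIs per thinned cell was below those of E2F1, E2F2, E2F4 and TFDP2. Genes were not matched on their mean, so the place of E2F3 in this order was not separated from its low level.

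**Figure D3:**
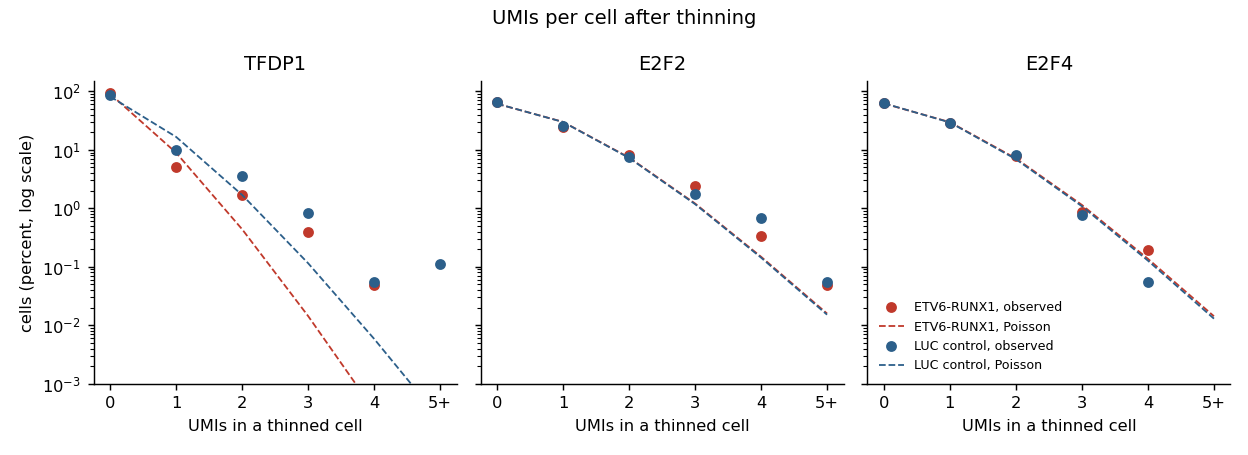
Share of thinned cells (percent, log axis) with 0, 1, 2, 3, 4 or 5 and more UMIs of TFDP1, E2F2 and E2F4; points are observed shares and dashed lines Poisson shares of the same mean, by library, with shares of 0 not drawn. Drawn points of TFDP1 and E2F2 lie above the lines from 2 UMIs on, and those of E2F4 cross the lines.

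Cells of both libraries were grouped into 5 clusters without using the 6 genes. The clusters were left unnamed and are given by their leading genes. Cluster 0 was led by the mitotic genes PIF1, PLK1 and CCNB1, cluster 1 by histone genes, cluster 2 by C10orf10, MXD4 and TM7SF2 with mostly G1 cells, and cluster 4 by CTA-29F11.1 and HIST1H2BK. Cluster 3 had TFDP1 itself at the top of its list, followed by EIF1AY, NPY (neuropeptide Y) and CTNNAL1.

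TFDP1 was at 61.5 CPM (54.3 to 69.4) in cluster 3 with ETV6-RUNX1 and at 74.2 CPM (67.7 to 81.2) in the control. In cluster 1 it was at 1.36 CPM (0.887 to 1.99) and 2.39 CPM (1.71 to 3.25), so the highest cluster stood 45.2-fold and 31.1-fold above the lowest. The 234 and 310 cells of cluster 3 held 56.3% and 54.9% of all TFDP1 UMIs. Of the thinned cells of cluster 3, 1.38% and 2.64% were called G1. The step of TFDP1 from G1 to S given above thus cannot be told apart from the phases that make up this cluster. Clusters 0, 2 and 4 were at 7.12, 22.2 and 4.18 CPM with ETV6-RUNX1 and at 16.2, 35.0 and 14.9 CPM in the control. When cell-cycle genes were left out of the clustering as well, the highest cluster was still at 66.0 and 72.7 CPM.

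The library ratio of TFDP1 was below 0 in each of the 5 clusters and nearest to 0 in the one that held most of its UMIs. It was -0.27 (-0.50 to -0.05) on the log2 scale in cluster 3, -1.19 (-1.61 to -0.78) in cluster 0, -0.81 (-1.59 to -0.07) in cluster 1, -0.66 (-1.12 to -0.19) in cluster 2 and -1.84 (-2.48 to -1.23) in cluster 4. Clustered without cell-cycle genes, the ratios were -0.14 (-0.35 to 0.07) in the TFDP1-rich cluster and -0.26 (-0.75 to 0.24), -0.63 (-1.41 to 0.15), -0.99 (-1.46 to -0.54) and -1.29 (-1.93 to -0.68) in the others. At a finer resolution of 1, clusters 3 and 8 of that grouping, which held 8 to 15 TFDP1 UMIs in each library, had ratios of 0.21 (-1.09 to 1.56) and 0.26 (-1.18 to 1.59). Cluster membership comes from genes that differ between the libraries, so cluster sizes are not given as a result, and equal weighting of the clusters gave the -0.57 above.

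E2F1 was highest in the histone cluster 1, at 97.0 and 76.7 CPM with ETV6-RUNX1 and in the control, and lowest in cluster 2, at 31.3 and 28.9 CPM. E2F2 was lowest in cluster 2 too, at 14.5 and 16.8 CPM, against 68.6 and 67.6 CPM in cluster 1. TFDP2 was highest in cluster 2, at 101 and 91.1 CPM, and lowest in cluster 3, at 57.0 and 48.0 CPM, so the DP genes had their highest levels in different clusters. Cells of cluster 2 were 77.1% and 77.3% G1 by the phase call, and their median UMI counts were below those of their library. The highest and lowest clusters of E2F3 differed by 1.48-fold and 1.17-fold, and those of E2F4 by 1.41-fold and 1.42-fold. The library ratio of E2F1 was -0.07 (-0.32 to 0.17) in cluster 4 and from 0.11 to 0.39 in the others. Clustered without cell-cycle genes, it was -0.29 (-0.54 to -0.04) in cluster 4 and above 0 in the others. At resolution 1 it was -0.37 (-0.62 to -0.12) in cluster 3, with other clusters on both sides of 0.

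**Figure D4:**
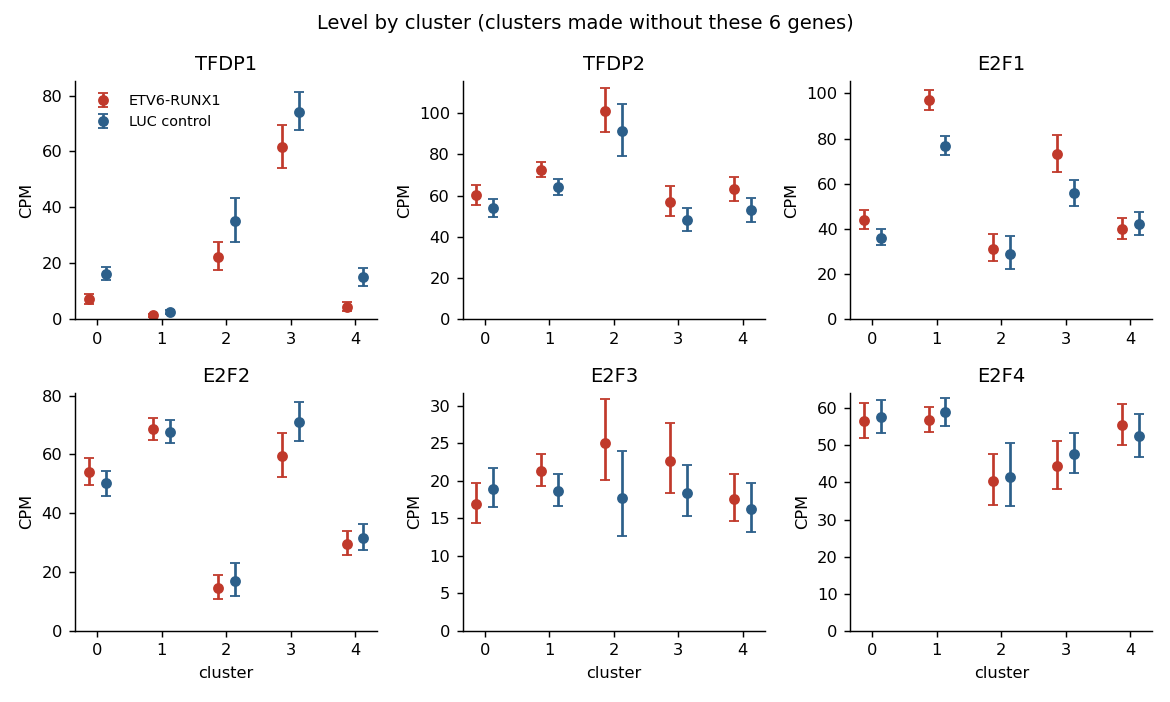
Level in CPM (y axis, from 0) of each gene in the 5 clusters, by library, with exact 95% Poisson intervals (counting error only). TFDP1 stands at 61.5 and 74.2 CPM in cluster 3 and at 1.36 and 2.39 CPM in cluster 1, while the highest and lowest clusters of E2F3 and E2F4 differ by 1.48-fold at most.

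GSTK1, a glutathione transferase of mitochondria and peroxisomes, was counted together with TFDP1. Thinned cells with at least 1 GSTK1 UMI, 91 with ETV6-RUNX1 and 137 in the control, had TFDP1 at 61.2 and 64.7 CPM, against 8.15 and 17.2 CPM in cells without one, and the library ratio of TFDP1 was -0.08 (-0.44 to 0.27) in the former and -1.08 (-1.27 to -0.88) in the latter on the log2 scale. GSTK1 was itself at 5.28 and 9.35 CPM, so most cells without a UMI were not informative on it. E2F1 was lower in GSTK1-positive cells, by -0.42 (-0.74 to -0.11) and -0.40 (-0.67 to -0.13), and E2F4 by -0.65 (-1.04 to -0.28) in the fusion library, against -0.16 (-0.42 to 0.08) for the control. In GSTK1-positive cells E2F4 had a library ratio of -0.50 (-0.96 to -0.05), from 60 and 141 UMIs.

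**Figure D5:**
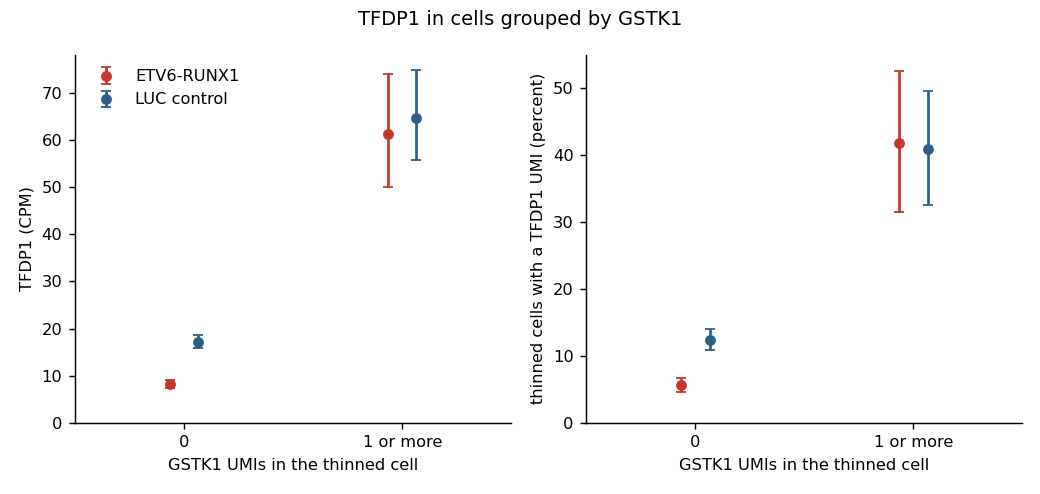
TFDP1 level in CPM (left) and percent of thinned cells with a TFDP1 UMI (right) in cells with 0 or with 1 or more GSTK1 UMIs, by library, with exact 95% intervals (counting error only). The libraries lie apart in cells without GSTK1 (8.15 and 17.2 CPM) and overlap in cells with it (61.2 and 64.7 CPM).

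For each gene the 5 measured genes most like it were taken by the smaller of the Pearson correlations in the 2 libraries, over 2043 and 1786 thinned cells on log counts. Points of 1 library share capture and culture, and in sparse counts the values are low. TFDP1 went with RPL22L1, a paralogue of a ribosomal protein (r = 0.23 with ETV6-RUNX1 and 0.25 in the control), EIF1AY (0.21 and 0.31), FDFT1, squalene synthase (0.19 and 0.25), CTNNAL1 and H3F3A. Among the nearest genes to E2F1 were KIAA0101, a PCNA-binding factor (0.21 and 0.18), DUT, the dUTP hydrolase (0.20 and 0.17), CCND3 and ATAD2. E2F2 went with the histone gene HIST1H4C (0.26 and 0.22), KIAA0101 (0.22 and 0.21), TUBB, IGLL1 (a surrogate light chain gene, 0.16 and 0.16) and TYMS. For TFDP2, E2F3 and E2F4 the smaller correlation was at most 0.09 with any gene and is no finding. Among the 6 genes the largest positive value was that of E2F1 with E2F2, at 0.10 and 0.08. TFDP1 with E2F1 was at -0.02 with ETV6-RUNX1 and at -0.10 in the control, the largest in size there.

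Cells were also grouped by their TFDP1 UMIs. In the control, cells with 1 to 2 TFDP1 UMIs had 0.302 E2F1 UMIs on average (0.236 to 0.379), against 0.516 (0.480 to 0.553) in cells without TFDP1. With ETV6-RUNX1 those means were 0.565 (0.447 to 0.705) and 0.613 (0.578 to 0.649), which overlapped. E2F2, E2F3, E2F4 and TFDP2 had overlapping intervals between these cells in the control. Cells with 3 or more TFDP1 UMIs numbered 9 and 18, too few for a level.

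Around the E2F genes, lists of the pathway were compared between the libraries, and 0 measured genes of any list were 1.5-fold higher or lower with ETV6-RUNX1. Over all measured genes 0.655% were that much lower and 0.185% that much higher. At those shares, 0 in lists of this size is no result about the pathway. Of 5 other family members, E2F6, a repressor that works without pocket proteins, was at 15.4 and 15.2 CPM (log2 ratio 0.02) and E2F8, an atypical repressor, at 13.8 and 14.0 CPM (-0.03). Among the pocket proteins, RB1 was at 44.3 and 40.7 CPM (0.12), RBL1 at 9.79 and 10.8 CPM (-0.14) and RBL2 at 11.0 and 10.3 CPM (0.10). A further list held cyclins, kinases and other regulators upstream of RB1, and all 6 of its measured genes lay below 0. CDK2 was at -0.17 (-0.33 to -0.02) and CCND3, the D-type cyclin of lymphoid cells, at -0.12 (-0.16 to -0.09). The median of the 6 was -0.09, where that of all measured genes was -0.04 and 63.8% of all measured genes lay below 0. With TMM scaling 5 of the 6 lay below 0. Of 3 measured CDK inhibitors, CDKN2D was at 16.5 CPM (log2 ratio -0.44, -0.58 to -0.30) against 22.3 CPM, CDKN1A was at 0.06 and CDKN2C at -0.00. TFDP3, CCND1, CDKN2A and CDKN2B, singled out after their values were seen, had 0 UMIs in both libraries, which allows up to 0.0683 and 0.0702 CPM.

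Of 49 listed E2F target genes 45 were measured, 15 above and 30 below 0, with a median log2 ratio of -0.06. In replication licensing, the ratios were -0.22 (-0.31 to -0.12) for MCM4, a subunit of the replicative helicase, -0.13 for the loader CDC6 and -0.13 for GMNN, the licensing inhibitor. In DNA synthesis, PCNA was at -0.21 (-0.26 to -0.17), the nuclease gene FEN1 at -0.21 and POLE2 at -0.15. In the chromatin and mitosis list, EZH2, the histone methyltransferase, was at 0.23 (0.15 to 0.31), the mismatch repair gene MSH6 at 0.18 and CDK1 at -0.28 (-0.35 to -0.20). The 30 of 45 target genes below 0 (66.7%) stood beside 63.8% of all measured genes, and with TMM scaling the shares were 60.0% and 50.9%.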

How the data were processed

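The authors deposited, for each of the 2 libraries, a matrix of raw counts (UMIs of each gene in each barcode) beside its gene and barcode lists, made with Cell Ranger 3.0.2 on hg19 per the submitters' processing notes. Nothing in the files was normalized. Groups came from the labels, and the members and gene lists were chosen with earlier results of these data known. Cells with at least 1000 genes and at most 10% mitochondrial UMIs were kept. Counts of kept cells were summed per library, cluster or phase and divided by their total (CPM). Ratios have exact 95% intervals for 2 Poisson counts, shares Clopper-Pearson intervals. A gene was called at 1.5-fold or more with at least 10 CPM in 1 library (5954 genes). Phase calls and Leiden clusters (2000 variable genes, 30 components, 15 neighbours, resolution 0.5) used scanpy 1.11.5. Scrublet called 14 and 16 doublets (0.618% and 0.856%), which were left in. Named genes were all 6 members, the 3 measured genes of largest ratio in each pathway list, and the 5 most like each member (unnamed where every correlation was weak), of which 1 more is not reported here. On simulated libraries 95.2% of intervals held the true ratio. The simulated counts were drawn as Poisson, so this checks the calculation only. It cannot show that the intervals fit the real counts or differences between cultures.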

Additional observations from a re-analysis of the deposited data

How the results depend on the processing

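The limits are the 1 library per group and counting depth, lowest for TFDP1. No paired analysis was possible because each group had 1 library and the labels give no replicate numbers. No ratio called at 1.5-fold changed sign. Of 60 alternative library ratios, 59 moved by less than their interval and 55 kept their sign, the other 5 being E2F2 and E2F4 near 0. The TFDP1 ratio was between -0.85 and -1.05 in the other alternatives and -0.57 with clusters matched, which was added after the data were seen. The count of genes 1.5-fold lower was 0 instead of 1 with clusters matched, with a floor of 50 CPM and at 2-fold.

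With phases called on all UMIs of each cell, the S over G1 log2 ratios with ETV6-RUNX1 were 1.48 for E2F1 and 1.84 for E2F2, and G2/M over G1 1.08 and 1.95. In the control, S over G1 was 1.18 for E2F1, 1.31 for E2F2 and 0.23 for E2F4, and G2/M over G1 was 0.61, 1.36 and 0.29, with TFDP2 at -0.44. With G1 taken as the lowest tercile of the larger score, S over G1 with ETV6-RUNX1 was 1.32 for TFDP1, 0.12 for TFDP2, 0.62 for E2F1 and 0.75 for E2F2, and G2/M over G1 was 0.10 for E2F1 and 0.76 for E2F2. In the control these calls gave E2F1 0.51 in S and -0.22 in G2/M, and E2F2 0.45 in G2/M. As UMIs per thinned cell, TFDP2 was -0.23 (S, ETV6-RUNX1) and -0.44 (G2/M, control), and E2F2 was 1.47 and 1.62 (S and G2/M, ETV6-RUNX1) and 0.89 (G2/M, control). The cause of these shifts was not tested.

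The shortfall of cells with a UMI against Poisson counts depends on depth. In percentage points it was 0.773 (ETV6-RUNX1) and 1.36 (control) for TFDP1 at 5000 UMIs and 6.09 and 12.5 without thinning. For E2F1 it was 1.04 (ETV6-RUNX1) at 5000 UMIs and 5.63 and 5.05 without thinning, and for E2F2 1.14 and 0.707, and 6.27 and 5.87. At Leiden resolution 1 the highest cluster was at 108 CPM for TFDP2 (control), 123 and 133 for E2F1, 99.5 and 90.6 for E2F2, 27.0 for E2F3 (control) and 69.0 for E2F4 (ETV6-RUNX1).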
